A study of Mus musculus with 30 samples.

Results

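The kinesins, motor proteins that spend ATP to walk along microtubules or to take their ends apart, were examined as a gene family in differentiating mouse C2C12 myoblasts. Members were the genes whose symbol in the array's platform annotation starts with Kif and a digit. Each gene was read from a probe set that carries its symbol alone and, where there were several, from the one with the highest mean over the 30 arrays. This gave 37 genes of the 18194 with such a probe set. By the roles known for them they were grouped as 11 mitotic motors, 15 transport motors, 5 motors of the cilium or centriole and 6 others. Of the 37, 11 were dim, which here means that their mean in every group lay below 76.46, the median of all deposited values (2 mitotic, 2 transport, 3 of the cilium or centriole and 4 others). The arrays of dim members ran between 0.482 and 87.0, so their differences carry wide errors.

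C2C12 is an established mouse myoblast line that fuses into myotubes after growth factors are lowered and turns to an osteoblast-like program under bone morphogenetic protein 2 (BMP2). C2C12-pMirn378 cells carry a lentiviral construct for the miR-378 precursor, and C2C12-pMirn0 cells carry its parent lentivector. Both lines express copGFP and were sorted on it as 1 transduced population each, so every comparison of lines is between these 2 populations. In each line the 5 groups were d0, taken after a day of growth, and d3 and d6 in differentiation medium with 300 ng/ml BMP2 or without it ("untreated"), each on 3 Affymetrix Mouse Genome 430 2.0 arrays. Mature miR-378 has no measurement on these arrays. The 3 arrays of a group come from repeats of the experiment with the same sorted line, so p-values measure the spread between those repeats.

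Mitotic kinesins build the spindle, push and align chromosomes, and complete cell division, and most of them are transcribed in waves that peak when cells approach mitosis. Their promoters are known for a short element, the cell cycle genes homology region, at which repressor complexes silence them in cells that have left the cycle. Transport kinesins carry vesicles, organelles and RNA in all cells, and in muscle kinesin-1 also moves nuclei and mitochondria along the growing myotube. Kinesins of the cilium and centriole build the cilium, hold it back or relay Hedgehog signals through it.

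Promoter windows of the mitotic motors are shown because 9 of the 11 were called lower over time in both lines, with a transport motor beside them for contrast. RefSeq windows on GRCm38.p6 run from 250 bases before to 50 after the annotated start site, and 31 of the 37 members had one. *Kif20a*, *Kif5b*, *Kif13b*, *Kif21b*, *Kif5a* and *Kif28* had none. Capitals mark TTTGAA (the core of the cell cycle genes homology region) and CCAAT (the core bound by NF-Y), read on either strand, so that they also appear as TTCAAA and ATTGG.
Kif11, chr19:37376132-37376431, plus strand: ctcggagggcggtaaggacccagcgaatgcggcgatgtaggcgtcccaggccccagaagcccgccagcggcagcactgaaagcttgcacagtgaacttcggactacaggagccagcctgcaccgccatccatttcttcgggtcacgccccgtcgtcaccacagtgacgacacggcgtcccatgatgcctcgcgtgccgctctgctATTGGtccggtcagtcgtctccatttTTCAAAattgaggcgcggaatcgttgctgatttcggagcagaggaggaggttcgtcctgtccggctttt
Kif20b, chr19:34922108-34922407, plus strand: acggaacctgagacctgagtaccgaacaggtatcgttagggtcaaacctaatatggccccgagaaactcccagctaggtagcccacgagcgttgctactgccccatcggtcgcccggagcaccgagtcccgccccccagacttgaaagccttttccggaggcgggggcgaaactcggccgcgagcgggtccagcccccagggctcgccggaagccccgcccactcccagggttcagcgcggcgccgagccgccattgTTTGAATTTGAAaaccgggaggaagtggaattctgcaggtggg
Kif23, chr9:61946750-61947049, minus strand: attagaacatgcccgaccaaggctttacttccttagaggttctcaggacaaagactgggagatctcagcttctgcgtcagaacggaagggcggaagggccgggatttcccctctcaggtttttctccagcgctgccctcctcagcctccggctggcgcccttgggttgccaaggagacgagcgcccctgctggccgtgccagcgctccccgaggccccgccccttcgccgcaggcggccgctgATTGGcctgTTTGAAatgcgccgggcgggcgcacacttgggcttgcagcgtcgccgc
Kif22, chr7:127042371-127042670, minus strand: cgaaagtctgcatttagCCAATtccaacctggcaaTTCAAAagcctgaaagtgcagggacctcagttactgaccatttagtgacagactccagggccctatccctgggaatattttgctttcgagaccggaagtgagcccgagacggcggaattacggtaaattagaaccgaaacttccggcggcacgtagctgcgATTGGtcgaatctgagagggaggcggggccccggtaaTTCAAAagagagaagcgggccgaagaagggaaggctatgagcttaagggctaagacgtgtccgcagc
Kif2c, chr4:117178723-117179022, minus strand: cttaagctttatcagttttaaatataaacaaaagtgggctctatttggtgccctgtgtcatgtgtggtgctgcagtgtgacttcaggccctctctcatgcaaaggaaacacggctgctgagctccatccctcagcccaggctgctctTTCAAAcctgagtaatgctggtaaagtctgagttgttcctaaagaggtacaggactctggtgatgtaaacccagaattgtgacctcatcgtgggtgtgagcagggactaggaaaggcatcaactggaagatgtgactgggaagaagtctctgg
Kif1c, chr11:70700298-70700597, plus strand: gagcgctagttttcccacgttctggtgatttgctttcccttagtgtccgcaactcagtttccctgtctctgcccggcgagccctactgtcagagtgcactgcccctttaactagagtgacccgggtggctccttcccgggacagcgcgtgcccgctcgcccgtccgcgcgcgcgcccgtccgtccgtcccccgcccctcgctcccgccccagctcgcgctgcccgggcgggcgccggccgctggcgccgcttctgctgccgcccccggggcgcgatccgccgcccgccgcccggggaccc

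TTTGAA was found in 9 of the 10 mitotic promoters with a window (not in *Kif18a*), against 1 of 11 transport promoters (*Kif1a*), 1 of 5 of the cilium or centriole (*Kif27*), 1 of 5 of the others (*Kif26b*) and 17.9% of all 32851 windows. With its first base within 30 bases of the start site it was found in 7 of 10 mitotic, 0 of 11 transport and 0 of 5 cilium or centriole promoters and in 1 of 5 of the others (*Kif26b* at -9), against 3.19% of all windows. It began at -19 in *Kif11*, at 7 and 13 in *Kif20b*, at 2 in *Kif23*, at -215 and -17 in *Kif22* and at -103 in *Kif2c*, counted from the start site, and it is missing from the *Kif1c* window shown. CCAAT was found in 6 of 10 mitotic, 3 of 11 transport and 3 of 5 cilium or centriole promoters and in 2 of 5 of the others, against 37.4% of all windows, and was within the sequences shown for *Kif11* at -45, *Kif23* at -7 and *Kif22* at -233 and -54. The E2F-type letters TTTCCCGC, TTTCGCGC, TTTGGCGC or TTTGCCGC, on either strand, were in 2 of 10 mitotic promoters (*Kif18a* and *Kif15*) and in 0 of 11 transport, 0 of 5 cilium or centriole and 0 of 5 other promoters, against 2.26% of all windows. No match overlapped another. A member was counted where any of its windows held the letters (35 windows for the 31 members), whereas the shares of all windows are per window. Over windows of protein-coding genes the shares were 16% for TTTGAA (2.5% within 30 bases), 38.2% for CCAAT and 2.85% for E2F-type letters. These matches describe letters in the windows, and no binding was measured here.

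**Figure D1:**
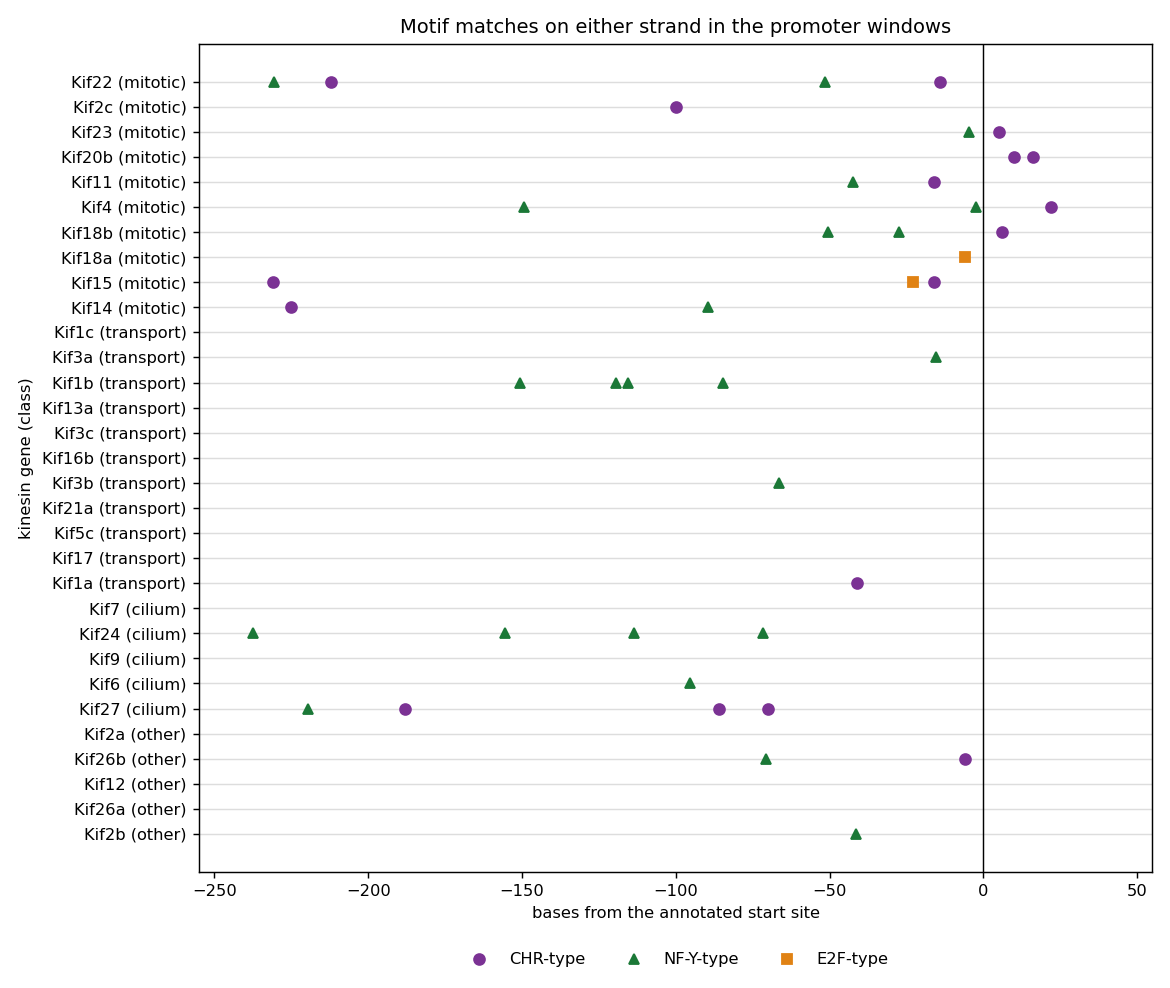
Positions of TTTGAA (circles), CCAAT (triangles) and E2F-type letters (squares) in the promoter windows of the 31 members with a window, with the distance from the annotated start site in bases on the horizontal axis and 1 row per member, grouped by class. Circles stand in 9 of 10 mitotic rows, 7 of them within 30 bases of the start site, against 1 of 11 transport rows.

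Deposited values were linear intensities, reported here as the average expression value (AEV). Array medians ran from 68.04 to 82.66, replicate arrays of a group correlated at 0.9786 to 0.9846 on the log2 scale, and 0 arrays were identical. The summed AEV of 5 myotube markers was 92517 to 94452 in C2C12-pMirn378 and 82843 to 95823 in C2C12-pMirn0 cells at d3 untreated. With BMP2 at d3 it was 13655 to 15394 in C2C12-pMirn378 and 15552 to 17682 in C2C12-pMirn0 cells, so the labelled treatments separate on their muscle genes. Since RNA was pooled over each culture, fewer cells of a kind and less RNA per cell cannot be told apart. Below, a gene is called where the limma p adjusted by Benjamini-Hochberg over all 45101 probe sets is under 0.005 and the log2 ratio lies beyond 0.6 in either direction. A time course is called where d6 against d0 passes that p and the d3 and d6 log2 ratios over d0 average beyond 0.6. Counts at an unadjusted p under 0.05 by limma are given without the share of all genes at that threshold. They are therefore not read as a result about the members. The same holds where arrays are said not to overlap or to lie apart, since the share of all genes without overlap is not given. The courses of a line with and without BMP2 share its d0 arrays.

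Most mitotic kinesins fell in every course. In both lines, with and without BMP2, 9 of the 11 (all but the dim *Kif15* and *Kif14*) were called lower over 6 days and 0 were called higher. Averaged over d3 and d6, the class median log2 ratio over d0 was -2.38 in C2C12-pMirn378 cells with BMP2 and -2.56 untreated, and -2.93 in C2C12-pMirn0 cells with BMP2 and -3.07 untreated. The medians over all genes for the same courses were 0.08, 0.14, 0.00 and -0.04. Over the whole family 12 members were called lower in each course, against 10.7% of all genes in C2C12-pMirn378 cells with BMP2, 11.0% in C2C12-pMirn378 cells untreated, 10.2% in C2C12-pMirn0 cells with BMP2 and 11.7% in C2C12-pMirn0 cells untreated. Members called higher numbered 8, 6, 5 and 4 in the same order, against 13.2%, 12.8%, 11.6% and 11.5% of all genes.

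*Kif20a*, which carries the chromosomal passenger complex to the spindle midzone, had AEVs of 3559, 3181 and 3217 at d0, 395, 323 and 359 at d3 and 377, 278 and 399 at d6 in untreated C2C12-pMirn378 cells. In untreated C2C12-pMirn0 cells *Kif20a* had 3285, 3128 and 3275 at d0, 175, 192 and 234 at d3 and 262, 265 and 280 at d6. Every d3 and d6 array lay far below every d0 array, and d6 against d0 gave log2 ratios of -3.26 in C2C12-pMirn378 and -3.59 in C2C12-pMirn0 cells (SE 0.14 each; adjusted p = 2.08e-14 and 3.82e-15 by limma). *Kif11*, the motor that slides spindle poles apart, had 1631, 1555 and 1505 at d0, 288, 238 and 236 at d3 and 236, 214 and 293 at d6 in untreated C2C12-pMirn378 cells. The same motor had 1473, 1499 and 1407 at d0, 165, 139 and 159.9 at d3 and 161, 212 and 208 at d6 in untreated C2C12-pMirn0 cells. Most of the drop had come by d3 in both lines, with *Kif11* at 16.2% of its d0 level at d3 and 15.8% at d6 in C2C12-pMirn378 cells, and at 10.6% and 13.2% in C2C12-pMirn0 cells.

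*Kif2c*, a depolymerase that releases wrongly attached chromosomes, had 3115, 3319 and 2933 at d0, 440.1, 328 and 434 at d3 and 360.5, 372 and 524 at d6 in untreated C2C12-pMirn378 cells. In untreated C2C12-pMirn0 cells it had 2926, 2871 and 2856 at d0, 195, 206 and 222 at d3 and 212, 240 and 299.9 at d6. The lines did not overlap at d3 or d6, with C2C12-pMirn378 above C2C12-pMirn0 arrays. *Kif20b*, a motor of cytokinesis, had 1764, 1712 and 1884 at d0, 243, 188 and 229.8 at d3 and 215, 169 and 276 at d6 in untreated C2C12-pMirn378 cells. It had 1725, 1759 and 1644 at d0, 124, 111 and 121 at d3 and 172, 191 and 142 at d6 in untreated C2C12-pMirn0 cells. Here the lines separated at d3 and overlapped at d6.

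*Kif23*, the motor of the centralspindlin complex that bundles the midzone, had 1995, 1835 and 1970 at d0, 276, 219 and 317 at d3 and 265, 177 and 281 at d6 in untreated C2C12-pMirn378 cells. Its values in untreated C2C12-pMirn0 cells were 2034, 1949 and 1866 at d0, 124, 74.2 and 142 at d3 and 147, 164 and 154 at d6. The later arrays of both lines stood well below d0, with C2C12-pMirn378 above C2C12-pMirn0 at both days. *Kif22*, a chromosome-bound motor that pushes chromosome arms outward, had 4170, 5755 and 4789 at d0, 1637, 1491 and 1468 at d3 and 1158, 1327 and 1729 at d6 in untreated C2C12-pMirn378 cells. In untreated C2C12-pMirn0 cells *Kif22* had 4557, 4905 and 4551 at d0, 779.9, 842 and 854 at d3 and 974, 1063 and 1048 at d6. *Kif22* kept the most of its d0 level among the 9, 28.6% in C2C12-pMirn378 and 22.0% in C2C12-pMirn0 cells at d6. The remaining called members, *Kif4* (a chromosome-bound motor that sets midzone length), *Kif18a* (which dampens chromosome movement at the plate) and *Kif18b* (which shortens astral microtubules), stood at 17.6% to 23.5% of d0 in C2C12-pMirn378 cells at d6 untreated and at 11.7% to 18.0% in C2C12-pMirn0 cells.

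**Figure D2:**
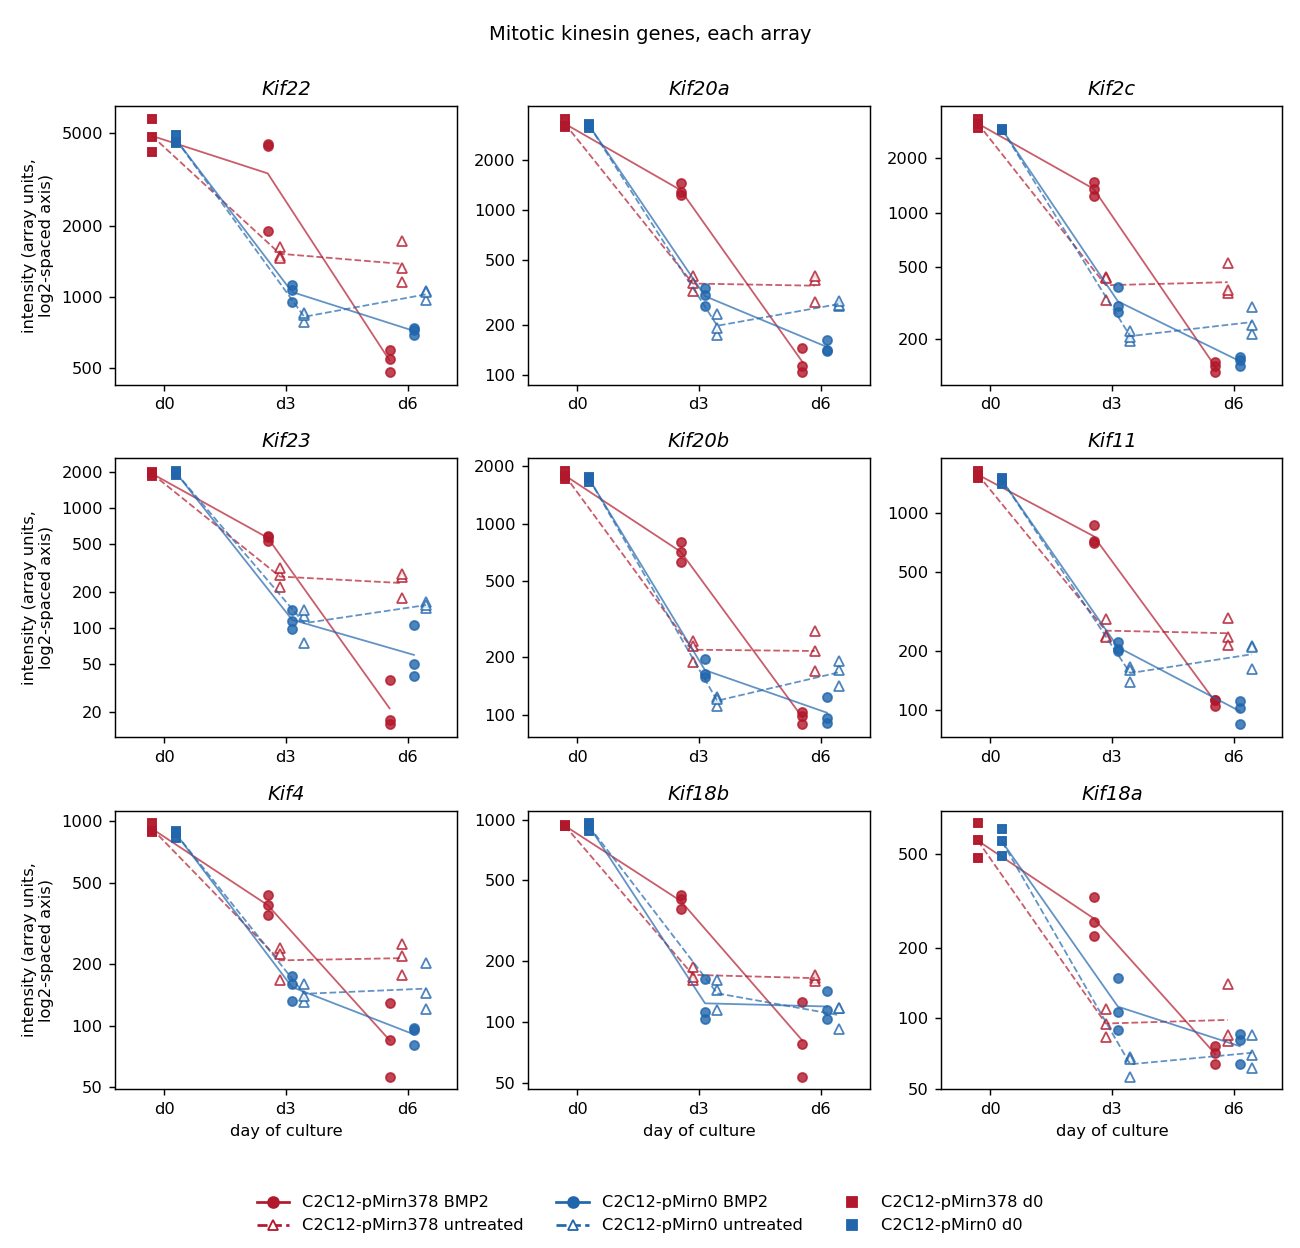
AEV of the 9 mitotic kinesins that were not dim, on a log-spaced vertical axis against day, with 1 point per array and lines through the geometric means (C2C12-pMirn378 red, C2C12-pMirn0 blue; d0 squares, BMP2 filled circles with solid lines, untreated open triangles with dashed lines). The red BMP2 points at d3 stand above all other d3 points for *Kif20a* (1225 to 1457, against 262 to 337 in C2C12-pMirn0 cells with BMP2) and below all untreated points at d6.

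At d6 against d3 few kinesins were called without BMP2, while mitotic motors fell further with BMP2. In C2C12-pMirn378 cells with BMP2 10 members were called lower (4.89% of all genes) and 0 higher (3.01%). These were the 9 mitotic motors, from -4.73 for *Kif23* to -1.92 for *Kif18a*, and the endosome motor *Kif13a* at -0.60. The d6 arrays of *Kif23* lay below the median of all values, and its ratio was -3.49 with values under 50 raised to 50. The second brightest probe sets of *Kif18a* (dim, -0.74) and *Kif13a* (-0.43) did not pass. In C2C12-pMirn0 cells with BMP2 4 mitotic motors were called lower (2.67% of all genes; *Kif2c* -1.10, *Kif11* -1.08, *Kif20a* -1.02, *Kif20b* -0.74) and 0 members higher (0.956%), and the second brightest probe sets of *Kif2c* (-0.73) and *Kif20b* (-0.44) did not pass. Untreated, *Kif26b* alone was called, higher by 0.66 in C2C12-pMirn378 cells (1 member against 1.79% of all genes) and by 0.60 in C2C12-pMirn0 cells (1.54%), and 0 members were called lower (0.813% and 0.984% of all genes). *Kif26b*, an atypical kinesin linked to cell adhesion, had 161, 197 and 218 at d0, 240.3, 273 and 242 at d3 and 429, 412 and 356 at d6 in untreated C2C12-pMirn378 cells. In untreated C2C12-pMirn0 cells it had 259, 274 and 236, 302, 341 and 297 and 428, 449 and 556 at the same days. Every d6 array was above every d3 array in both lines. The call was lost without replicate 1 or 3 of d3 or replicate 1 or 2 of d6 in C2C12-pMirn378 cells, and without any of d3 or replicate 1 or 2 of d6 in C2C12-pMirn0 cells (0 members each), and in C2C12-pMirn0 cells also with the replicate number as a block (adjusted p = 0.00776 by limma). In fits of the compared groups alone, 4 members stayed called in C2C12-pMirn378 cells with BMP2 and 0 in C2C12-pMirn0 cells with BMP2.

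Transport kinesins differed in direction, and most were not called in a given course. Among the 15, 5 were called higher and 1 lower in C2C12-pMirn378 cells with BMP2 (13.2% and 10.7% of all genes), 4 and 2 untreated (12.8% and 11.0%), 4 and 1 in C2C12-pMirn0 cells with BMP2 (11.6% and 10.2%), and 4 and 2 untreated (11.5% and 11.7%), so the counts called lower are close to the shares of all genes. The class medians were 0.38, 0.32, 0.49 and 0.33 in that order. Relative to the line's own d0, the 13 transport motors that were not dim had a median level of 136% at d3 and 130% at d6 in C2C12-pMirn378 cells with BMP2, and 135% at both days in C2C12-pMirn0 cells with BMP2. The 9 mitotic motors stood at 42.6% and 7.03% in C2C12-pMirn378 cells with BMP2, and at 13.6% and 6.81% in C2C12-pMirn0 cells with BMP2.

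*Kif5b*, the ubiquitous kinesin-1 heavy chain, had AEVs of 4897, 4348 and 4751 at d0, 9408, 8729 and 8876 at d3 and 9006, 8708 and 8330 at d6 in untreated C2C12-pMirn378 cells. In untreated C2C12-pMirn0 cells *Kif5b* had 4669, 4448 and 4435 at d0, 10473, 9256 and 8939 at d3 and 9581, 8839 and 9760 at d6. All later untreated arrays lay above the d0 arrays, and d6 against d0 gave 0.90 in C2C12-pMirn378 and 1.06 in C2C12-pMirn0 cells (SE 0.08; adjusted p = 5.48e-09 and 3.68e-10 by limma). With BMP2 *Kif5b* stayed closer to d0, with 4449, 4475 and 4567 at d3 and 5220, 5196 and 5874 at d6 in C2C12-pMirn378 cells, and 5949, 5661 and 4782 at d3 and 6444, 5784 and 6092 at d6 in C2C12-pMirn0 cells. *Kif3a*, the kinesin-2 subunit of intraflagellar transport, had 1091, 1011 and 1007 at d0, 1971, 1920 and 1779 at d3 and 2030, 1892 and 1989 at d6 in untreated C2C12-pMirn378 cells. It had 1021, 997 and 1001 at d0, 1908, 1636 and 2049 at d3 and 2165, 2032 and 1842 at d6 in untreated C2C12-pMirn0 cells. Like *Kif5b* it was called higher in both untreated courses (mean log2 ratio 0.90 in C2C12-pMirn378 and 0.94 in C2C12-pMirn0 cells), and with BMP2 its arrays were 1169, 1247 and 1219 at d3 and 1385, 1360 and 1453 at d6 in C2C12-pMirn378 cells, and 1477, 1335 and 1359 at d3 and 1468, 1400 and 1471 at d6 in C2C12-pMirn0 cells.

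*Kif1b*, whose isoforms carry mitochondria and synaptic vesicle precursors, had 856, 768 and 932 at d0, 1591, 1639 and 1616 at d3 and 1544, 1374 and 1622 at d6 in C2C12-pMirn378 cells with BMP2. In C2C12-pMirn0 cells with BMP2 it had 873, 842 and 933, 1653, 1484 and 1459 and 1285, 1363 and 1295 at the same days. Without BMP2 *Kif1b* had 1478, 1315 and 1036 at d3 and 1347, 1169 and 1348 at d6 in C2C12-pMirn378 cells, and 1538, 1323 and 1467 at d3 and 1562, 1381 and 1168 at d6 in C2C12-pMirn0 cells. It was called higher in 3 courses (0.88 in C2C12-pMirn378 cells with BMP2, and 0.68 with BMP2 and 0.67 untreated in C2C12-pMirn0 cells), but its second brightest probe set gave -0.28 and -0.09 for the BMP2 courses of C2C12-pMirn378 and C2C12-pMirn0 cells. The probe sets of *Kif1b* also disagreed on BMP2 against untreated at d6 in C2C12-pMirn0 cells. The one used gave -0.05, the second brightest -1.20 (adjusted p = 1.01e-07 by limma), and the others ran from -1.12 to 0.16. *Kif16b*, an early endosome motor, was called higher in all 4 courses, by 0.65 to 0.84, but in the C2C12-pMirn0 BMP2 course its second brightest probe set gave 0.33 without passing, and in the C2C12-pMirn378 BMP2 course 2 other normalizations gave 0.60 and 0.59, short of a call. *Kif1c*, another vesicle motor of the kinesin-3 family, had 1726, 1787 and 1655 at d0, 1904, 1813 and 1862 at d3 and 2243, 2119 and 2097 at d6 in untreated C2C12-pMirn378 cells. It had 1671, 1630 and 1624 at d0, 1779, 1858 and 1975 at d3 and 2255, 2195 and 2435 at d6 in untreated C2C12-pMirn0 cells. With BMP2 *Kif1c* had 1929, 2065 and 1950 at d3 and 1586, 1458 and 1497 at d6 in C2C12-pMirn378 cells, and 1719, 1793 and 1709 at d3 and 1560, 1699 and 1513 at d6 in C2C12-pMirn0 cells. *Kif1c* moved by 0.48 or less on the log2 scale between d0 and d6 in every course, and was not called.

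*Kif5c* and *Kif21a* went against the transport motors that rose. *Kif5c*, a kinesin-1 heavy chain best known from neurons, had 640.3, 637 and 652 at d0, 374, 280.1 and 289.7 at d3 and 314, 391 and 412 at d6 in untreated C2C12-pMirn378 cells. In untreated C2C12-pMirn0 cells *Kif5c* had 572, 685 and 653 at d0, 226, 277 and 289 at d3 and 294, 324 and 339 at d6. It was called lower in all 4 courses, by -0.92 to -1.70, although its second brightest probe set gave -0.45 in C2C12-pMirn378 and 0.17 in C2C12-pMirn0 cells with BMP2, and passed in neither. *Kif21a*, which slows microtubule growth, had 698, 468 and 654 at d0, 433, 433 and 378 at d3 and 370.2, 321 and 409.6 at d6 in untreated C2C12-pMirn378 cells. It had 748, 593 and 648 at d0, 344, 364 and 282 at d3 and 310.5, 328 and 292 at d6 in untreated C2C12-pMirn0 cells. *Kif21a* was called lower in the untreated courses (-0.62 in C2C12-pMirn378 and -1.05 in C2C12-pMirn0 cells). With BMP2 its arrays stood at 446, 410.4 and 439.9 at d3 and 508, 507 and 545 at d6 in C2C12-pMirn378 cells, and at 536, 517 and 484 at d3 and 574, 594 and 524 at d6 in C2C12-pMirn0 cells.

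*Kif21b*, a kinesin that controls microtubule growth, and *Kif13b*, which carries membrane scaffolds of the Dlg family, were called higher in both BMP2 courses, *Kif21b* by 1.55 in C2C12-pMirn378 and 1.97 in C2C12-pMirn0 cells and *Kif13b* by 1.46 in C2C12-pMirn378 and 1.58 in C2C12-pMirn0 cells. *Kif21b* had 116, 99.5 and 119.8 at d0 in C2C12-pMirn378 and 108, 137 and 126 in C2C12-pMirn0 cells, and *Kif13b* had 258, 271 and 255 in C2C12-pMirn378 and 247, 258 and 294 in C2C12-pMirn0 cells. In C2C12-pMirn378 cells *Kif21b* was also called untreated (0.63) and *Kif13a* with BMP2 (0.63). The second brightest probe sets did not pass for *Kif21b* (dim; 0.52 and -0.53 with BMP2 and untreated in C2C12-pMirn378, 0.70 with BMP2 in C2C12-pMirn0 cells), or in C2C12-pMirn378 cells with BMP2 for *Kif13b* (0.56) and *Kif13a* (0.24). *Kif3b*, *Kif3c* and *Kif17*, with the dim *Kif5a* and *Kif1a*, were not called in any course.

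**Figure D3:**
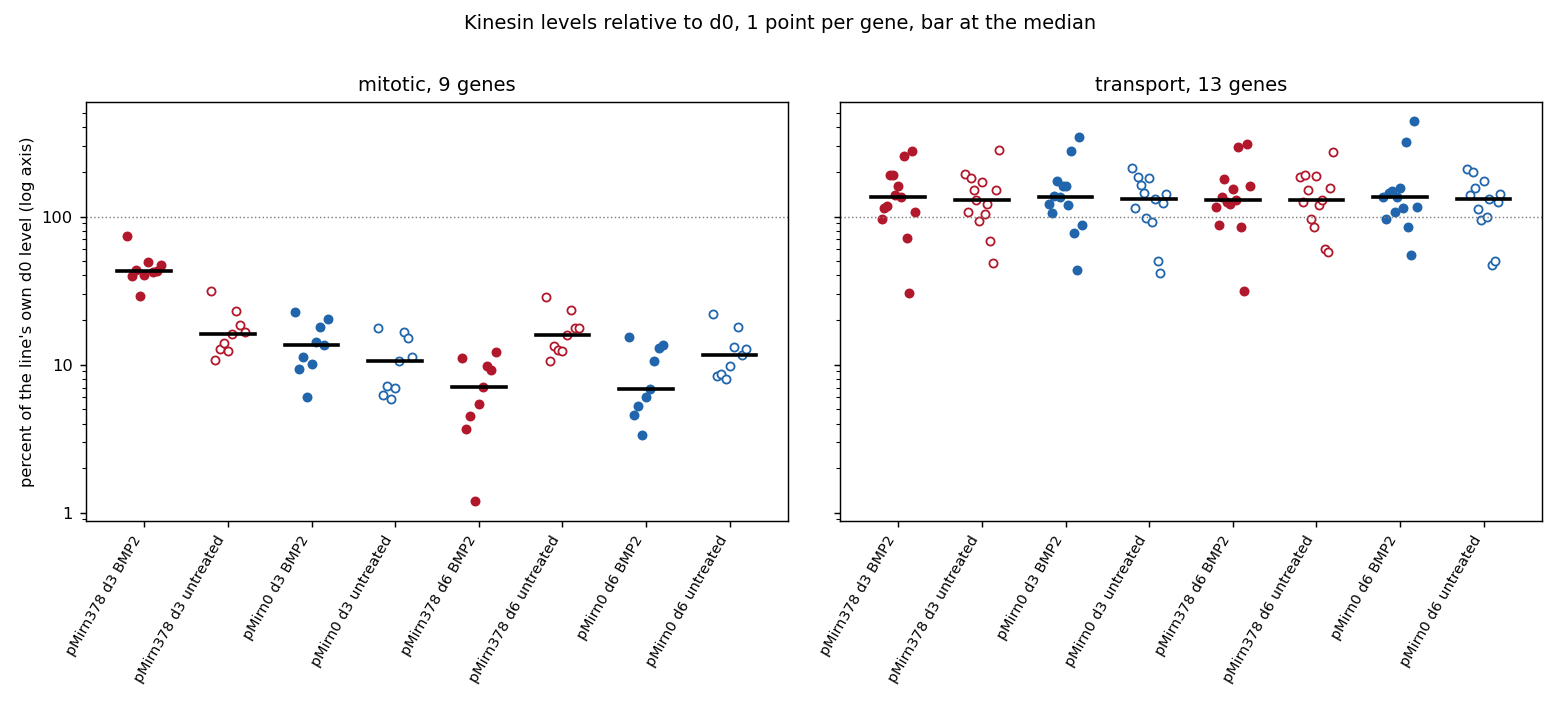
Arithmetic mean AEV of each kinesin at d3 and d6 as a percent of its line's own d0 mean, on a log axis. Shown are the 9 mitotic and the 13 transport motors that were not dim, with 1 point per gene (filled BMP2, open untreated). A bar marks the class median and a dotted line marks 100. Mitotic points run from 1.19% to 73.6% and transport points from 30.4% to 441%, with the mitotic median of C2C12-pMirn378 cells at d3 with BMP2 (42.6%) above the other mitotic medians (6.81% to 16.2%).

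Among the motors of the cilium and centriole, *Kif7* and *Kif24* parted under BMP2. *Kif7*, the regulator of Gli proteins at the cilium tip, had 412, 351 and 367 at d0, 659.9, 704 and 712 at d3 and 732, 782 and 806 at d6 in C2C12-pMirn378 cells with BMP2. In C2C12-pMirn0 cells with BMP2 *Kif7* had 334, 375 and 374 at d0, 811, 661 and 771 at d3 and 787, 763 and 715 at d6. It was called higher in both BMP2 courses (0.96 in C2C12-pMirn378 and 1.06 in C2C12-pMirn0 cells). *Kif24*, a centriolar depolymerase that holds back cilium growth, had 229, 286 and 278 at d0, 155, 154 and 118 at d3 and 83.3, 86.6 and 122 at d6 in C2C12-pMirn378 cells with BMP2. In C2C12-pMirn0 cells with BMP2 *Kif24* had 251, 332 and 239.6 at d0, 132, 108 and 104 at d3 and 102, 87.2 and 89.9 at d6. It was called lower in both BMP2 courses (-1.18 in C2C12-pMirn378 and -1.40 in C2C12-pMirn0 cells), and neither gene was called in an untreated course. The second brightest probe set of *Kif24* gave -0.12 in C2C12-pMirn378 and -0.85 in C2C12-pMirn0 cells with BMP2 and did not pass. *Kif9*, a motor of motile cilia, was dim throughout and called higher in C2C12-pMirn378 cells with BMP2 (3.29) and untreated (3.56), where its d0 arrays read 4.85, 16.4 and 2.42, and not with values under 50 raised to 50 (0.19 and 0.44). *Kif6* and *Kif27*, both dim, were not called.

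*Kif2a*, a depolymerase used in spindles and in neurites, fell from d0 by less than the mitotic motors. Its AEVs were 1790, 1647 and 1699 at d0, 912, 915 and 906 at d3 and 1034, 1042 and 975 at d6 in C2C12-pMirn378 cells with BMP2, and 981, 946 and 895 at d3 and 746, 740.3 and 769.9 at d6 untreated. In C2C12-pMirn0 cells *Kif2a* had 1792, 1648 and 1712 at d0, 1037, 895 and 994 at d3 and 989, 967 and 1031 at d6 with BMP2, and 934, 930.5 and 916 at d3 and 676, 680.3 and 716 at d6 untreated. All later arrays were below d0, and *Kif2a* was called lower in the 4 courses, by -0.80 to -1.10. If *Kif2a* is counted as mitotic, 10 of 12 mitotic members were called lower in each course. In the other comparisons *Kif2a* did not go with them: at d6 it was higher with BMP2 than untreated, by 0.43 in C2C12-pMirn378 and 0.53 in C2C12-pMirn0 cells (adjusted p = 3.97e-06 and 2.37e-07 by limma), short of the ratio asked for a call, and at d3 with BMP2 the lines differed by -0.10. *Kif26b* was called higher over the untreated course of C2C12-pMirn378 cells (0.73), and the dim *Kif26a* over their BMP2 course (2.53), with d0 arrays at 3.93, 2.63 and 5.17, and not with values under 50 raised to 50 (0.08). *Kif12*, *Kif2b* and *Kif28* were dim and not called.

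C2C12-pMirn378 cells cultured with BMP2 held more mitotic kinesin RNA at d3 than untreated cells of the same day, and less at d6. At d3 in C2C12-pMirn378 cells 8 of 11 mitotic motors were called higher with BMP2 (class median 1.21, against -0.03 for all genes), and at d6 8 were called lower (-1.16). In C2C12-pMirn0 cells 2 were called higher at d3 (*Kif18a* 0.82 and *Kif2c* 0.64; class median 0.43), of which *Kif18a* was lost with the replicate number as a block (adjusted p = 0.00548 by limma) and *Kif2c* with 2 other normalizations (0.55 and 0.54), and 5 lower at d6 (class median -0.70). Over the family, 11 members were called higher in C2C12-pMirn378 cells at d3 (13.3% of all genes) and 4 lower (9.84%), while at d6 4 were higher (10.8%) and 12 lower (11.1%). In C2C12-pMirn0 cells 7 members were called higher at d3 (11.2%) and 2 lower (8.48%), while at d6 4 were higher (11.0%) and 8 lower (10.6%). Outside the mitotic class, *Kif7*, *Kif13b* and *Kif21b* rose and *Kif24* and *Kif5b* fell with BMP2 at both days in both lines.

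At d3 *Kif20a* had 1457, 1274 and 1225 with BMP2 and 395, 323 and 359 untreated in C2C12-pMirn378 cells, a log2 ratio of 1.88 (adjusted p = 2.3e-10 by limma). *Kif2c* had 1245, 1362 and 1474 with BMP2 and 440.1, 328 and 434 untreated in C2C12-pMirn378 cells at d3 (1.77). *Kif20b* had 632, 712 and 804 with BMP2 and 243, 188 and 229.8 untreated (1.70). These 3 motors and *Kif11*, with 704, 721 and 872 with BMP2 and 288, 238 and 236 untreated (1.59), had no BMP2 array as low as an untreated one. *Kif22* was more spread, with 1921, 4410 and 4498 with BMP2 and 1637, 1491 and 1468 untreated at d3 in C2C12-pMirn378 cells (1.14): its first BMP2 array was close to untreated and its others were close to d0. *Kif23* had 582, 534 and 576 with BMP2 and 276, 219 and 317 untreated, and did not pass (1.07; adjusted p = 0.00968 by limma).

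At d6 in C2C12-pMirn378 cells the order was turned. *Kif23* had 36.4, 17 and 15.6 with BMP2 and 265, 177 and 281 untreated, a log2 ratio of -3.47 (SE 0.31; adjusted p = 5.56e-09 by limma), and its BMP2 arrays lay below the median of all values (-2.24 with values under 50 raised to 50). *Kif2c* had 141, 131 and 149 with BMP2 and 360.5, 372 and 524 untreated (-1.56). *Kif20a* had 104, 113 and 146 with BMP2 and 377, 278 and 399 untreated (-1.53). Every BMP2 array of these 3 motors was below every untreated one, as it was for *Kif22* (479, 545 and 594 with BMP2 and 1158, 1327 and 1729 untreated; -1.37). *Kif11* gave -1.16 and *Kif20b* -1.16, with *Kif11* at 105, 112 and 112 and *Kif20b* at 98.1, 104 and 89 with BMP2. *Kif18a* gave -0.49 and was not called (adjusted p = 0.0904 by limma). In C2C12-pMirn0 cells at d6 *Kif23* had 39.7, 106 and 49.8 with BMP2 and 147, 164 and 154 untreated (-1.38; adjusted p = 0.0012 by limma), again without overlap, but its second brightest probe set gave -0.40 (adjusted p = 0.263), and those of *Kif2c* (-0.30) and *Kif20b* (-0.72) did not pass either. *Kif26a*, a kinesin that lacks motor activity, gave 2.33 in C2C12-pMirn378 cells at d6, but its probe set was dim and 1 of its BMP2 arrays stood apart (16.8, 70.4 and 16 with BMP2 and 8.12, 6.54 and 2.81 untreated).

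*Kif21b* had 460.5, 419.5 and 402 with BMP2 and 161, 168 and 127 untreated in C2C12-pMirn0 cells at d3 (1.50), and 532, 543 and 566 with BMP2 and 132, 179 and 154 untreated at d6 (1.83; adjusted p = 1.57e-10 by limma). In C2C12-pMirn378 cells it had 359, 305 and 272 with BMP2 and 179, 162 and 169 untreated at d3 (0.87), and 349.6, 296 and 392 with BMP2 and 160.5, 189 and 176 untreated at d6 (0.98). BMP2 arrays were all above untreated arrays in both lines. *Kif13b* had 691, 745 and 565 with BMP2 and 336, 341 and 275 untreated in C2C12-pMirn378 cells at d3, and 792, 751 and 779 with BMP2 and 360.2, 348 and 303 untreated at d6. It had 754, 661 and 796 with BMP2 and 325, 378 and 347 untreated in C2C12-pMirn0 cells at d3, and 813, 866 and 888 with BMP2 and 371, 396 and 291 untreated at d6. The ratios of *Kif13b* were 1.07 and 1.20 in C2C12-pMirn378 cells and 1.07 and 1.29 in C2C12-pMirn0 cells at d3 and d6, with no overlap at either day.

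*Kif7* with BMP2 (given above) stood against untreated arrays of 269, 295 and 243 at d3 and 239.7, 312 and 247 at d6 in C2C12-pMirn378 cells, and of 269, 252 and 252 at d3 and 259, 260.2 and 223 at d6 in C2C12-pMirn0 cells. Its ratios were 1.37 at d3 and 1.55 at d6 in C2C12-pMirn378 cells, and 1.53 and 1.61 in C2C12-pMirn0 cells (SE 0.10 each; adjusted p from 2.4e-10 to 1.54e-11 by limma). *Kif24* went the other way, with untreated arrays of 359, 255 and 310 at d3 and 296, 196 and 236 at d6 in C2C12-pMirn378 cells, and of 243, 272 and 320 at d3 and 256, 234 and 228 at d6 in C2C12-pMirn0 cells. Its ratios were -1.11 and -1.32 in C2C12-pMirn378 cells and -1.28 and -1.37 in C2C12-pMirn0 cells at d3 and d6. *Kif5b* was lower with BMP2 by -1.00 at d3 and -0.68 at d6 in C2C12-pMirn378 cells, and by -0.81 and -0.62 in C2C12-pMirn0 cells. *Kif3a* was called at d3 in C2C12-pMirn378 cells (-0.64), *Kif3c* at d3 in C2C12-pMirn0 cells (0.71), and *Kif21a* in C2C12-pMirn0 cells at d3 (0.64) and d6 (0.86). *Kif3c*, a kinesin-2 chain, had 1037, 954 and 900.3 with BMP2 and 635, 662 and 615 untreated in C2C12-pMirn378 cells at d3, and 965, 916 and 1177 with BMP2 and 669, 587 and 610.2 untreated in C2C12-pMirn0 cells. At d6 *Kif3c* had 849.8, 802 and 828 with BMP2 and 559, 622 and 558 untreated in C2C12-pMirn378 cells, and 888, 787 and 913 with BMP2 and 544, 549 and 706 untreated in C2C12-pMirn0 cells, and d0 arrays were 666, 662 and 731 in C2C12-pMirn378 and 615, 638 and 655 in C2C12-pMirn0 cells. Its BMP2 arrays were above its untreated arrays in each pair. *Kif26b* was called lower with BMP2 at d6, by -0.93 in C2C12-pMirn378 and -0.61 in C2C12-pMirn0 cells (212, 183 and 234 with BMP2 in C2C12-pMirn378, 360.3, 289 and 288 with BMP2 in C2C12-pMirn0 cells). In fits of the 2 compared groups alone, 8, 5, 4 and 6 members stayed called in place of 15, 16, 9 and 12 (C2C12-pMirn378 d3, C2C12-pMirn378 d6, C2C12-pMirn0 d3, C2C12-pMirn0 d6). *Kif5c* was called lower with BMP2 in C2C12-pMirn378 cells (-0.69 at d3 and -0.88 at d6), where its second brightest probe set gave 0.81 and 0.35. In C2C12-pMirn0 cells at d6 the *Kif5c* probe set used gave 0.14 and its second brightest probe set 1.37 (adjusted p = 1.32e-08 by limma). For *Kif21b* that probe set was dim and did not pass in any of the 4 BMP2 comparisons, and for *Kif13b* it gave 0.65 at d3 and 1.18 at d6 in C2C12-pMirn378 cells without passing. It also fell short for *Kif24* at d3 (-1.49) and *Kif21a* at d3 (0.59) in C2C12-pMirn0 cells, and for *Kif5b* at d6 (-0.52) and *Kif20b* at d6 (-1.03) in C2C12-pMirn378 cells.

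**Figure D4:**
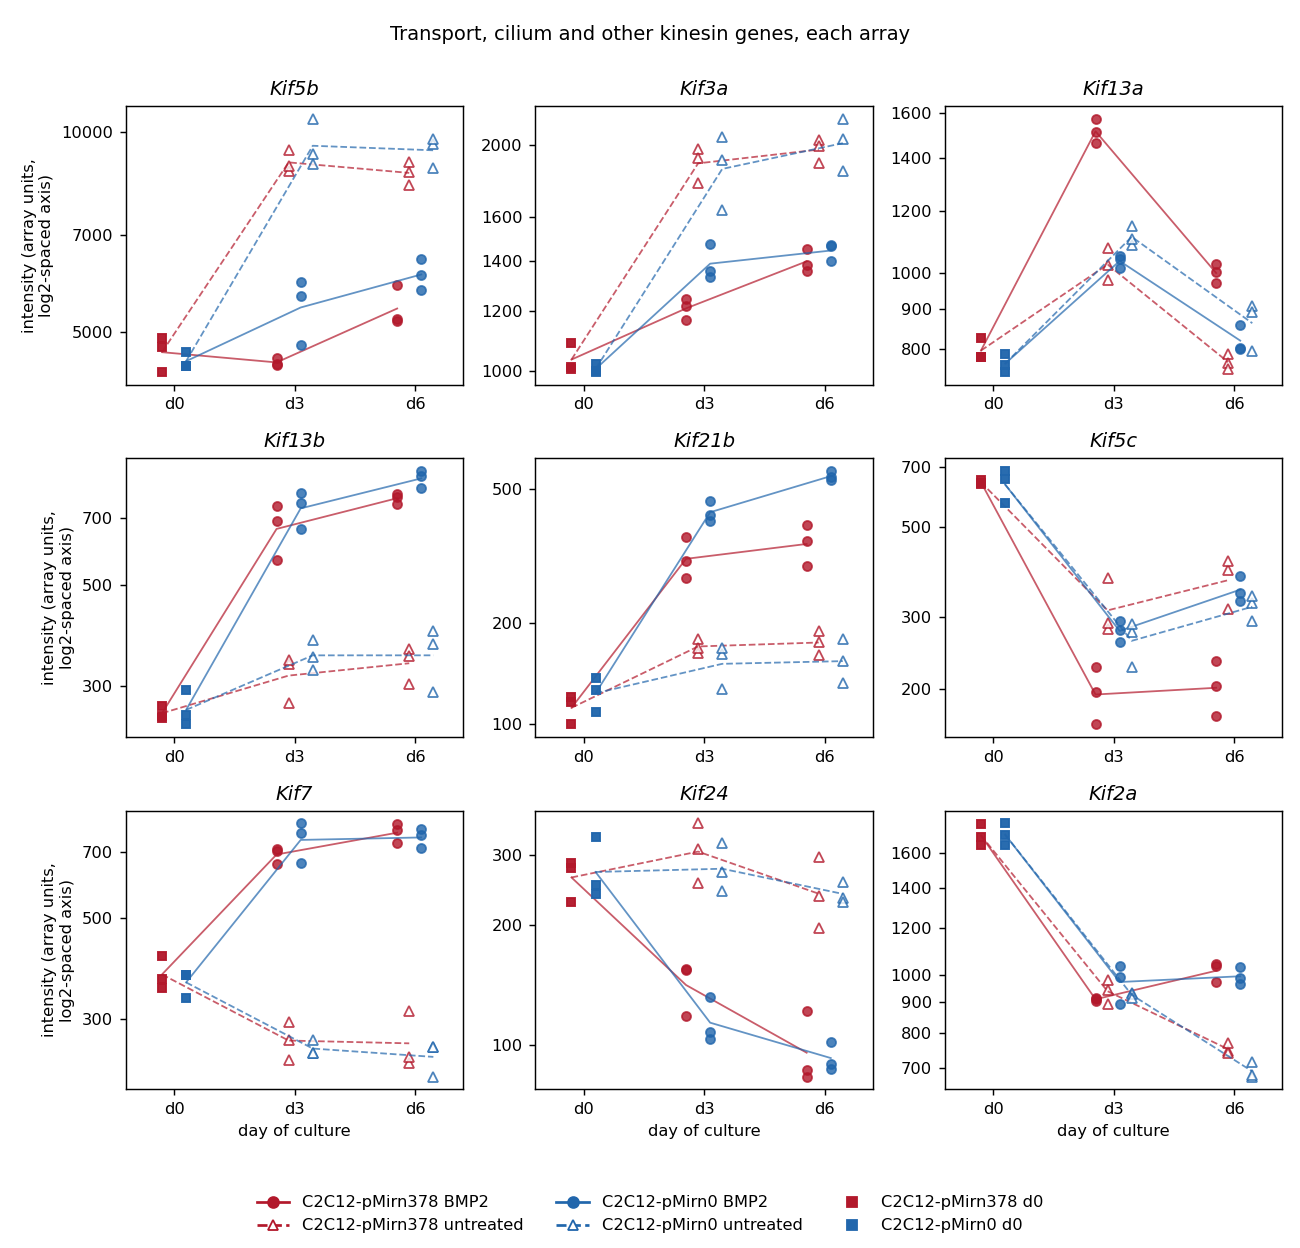
AEV of 9 kinesins of the transport, cilium and other classes on a log-spaced vertical axis against day, with 1 point per array and lines through the geometric means (C2C12-pMirn378 red, C2C12-pMirn0 blue; d0 squares, BMP2 filled circles with solid lines, untreated open triangles with dashed lines). *Kif13b*, *Kif21b* and *Kif7* stand higher with BMP2 than untreated in both lines and *Kif24* and *Kif5b* lower, while *Kif5c* with BMP2 lies lower in C2C12-pMirn378 (172 to 235 at d6) than in C2C12-pMirn0 cells (329 to 379).

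Between the lines, 0 mitotic kinesins were called at d0, 4 of 11 were called higher in C2C12-pMirn378 cells at d3 untreated, and 9 at d3 with BMP2. At d3 with BMP2 9 of 11 mitotic motors were called higher in C2C12-pMirn378 cells, with a class median of 1.68, and 0 of 15 transport motors were called, with a class median of -0.15 (all genes -0.01), 2 of them higher and 4 lower at an unadjusted p under 0.05 by limma. These 9 were the only members called higher (2.49% of all genes), and 0 were called lower (1.87%). At d0 the mitotic motors that were not dim differed by -0.01 to 0.11.

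*Kif20a* at d3 with BMP2 had 1457, 1274 and 1225 in C2C12-pMirn378 cells, against 306, 262 and 337 in C2C12-pMirn0 cells, a log2 ratio of 2.13 (SE 0.14; adjusted p = 6.94e-10 by limma). *Kif2c* had 1245, 1362 and 1474 in C2C12-pMirn378 cells, against 281, 306 and 390.4 in C2C12-pMirn0 cells (2.07, SE 0.15; adjusted p = 1.91e-09 by limma). *Kif20b* had 632, 712 and 804 in C2C12-pMirn378 cells, against 162, 157 and 197 in C2C12-pMirn0 cells (2.06, SE 0.16). None of these arrays overlapped between the lines. *Kif11* had 704, 721 and 872 in C2C12-pMirn378 cells, against 199.9, 204 and 222 in C2C12-pMirn0 cells (1.87, SE 0.13; adjusted p = 1.14e-09 by limma). *Kif23* had 582, 534 and 576 in C2C12-pMirn378 cells, against 114, 98.2 and 142 in C2C12-pMirn0 cells (2.27, SE 0.31). *Kif22* had 1921, 4410 and 4498 in C2C12-pMirn378 cells, against 956, 1076 and 1130 in C2C12-pMirn0 cells (1.68, SE 0.21; adjusted p = 7.22e-06 by limma). These 3 were again apart in every array, although on the *Kif22* probe set used replicate 1 of C2C12-pMirn378 cells read lower than the other 2. The other *Kif22* probe sets gave 1.84 (adjusted p = 1.8e-10 by limma) and 1.44 (adjusted p = 3.55e-05). *Kif4* had 387, 349 and 433 in C2C12-pMirn378 cells, against 159, 132 and 174 in C2C12-pMirn0 cells (1.33, SE 0.22). *Kif18b* had 424, 363 and 404 in C2C12-pMirn378 cells, against 104, 163 and 111 in C2C12-pMirn0 cells (1.68, SE 0.21). *Kif18a* had 224, 258 and 329 in C2C12-pMirn378 cells, against 89.3, 106 and 149 in C2C12-pMirn0 cells (1.25, SE 0.21; adjusted p = 0.000261 by limma). Set against their own d0, the 9 motors stood at 29.2% to 73.6% in C2C12-pMirn378 cells and 6.06% to 22.6% in C2C12-pMirn0 cells. Among 10 further probe sets for 5 of these genes that were not dim, the ratios ran from 0.44 to 2.51 (median 1.51), and 6 were called higher and 0 lower.

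The 9 calls at d3 with BMP2 held with each array left out in turn, *Kif18a* did not pass on its second probe set (dim, 0.65), and the calls became 0 when the 6 arrays of these groups were fitted alone, where 12 members were higher and 4 lower at an unadjusted p under 0.05. Marker genes of other cell states moved in the same comparison. The summed AEV of 3 osteoblast markers was 6174 to 6937 in C2C12-pMirn378 and 3341 to 3563 in C2C12-pMirn0 cells. That of 3 chondrocyte markers was 1458 to 1684 in C2C12-pMirn378 and 927.3 to 1255 in C2C12-pMirn0 cells. That of 3 myoblast markers was 7812 to 8866 in C2C12-pMirn378 and 10366 to 11163 in C2C12-pMirn0 cells. Not every listed gene moved with its sum. In C2C12-pMirn378 and C2C12-pMirn0 cells *Myf5* (means 2778 and 5377) and *Myod1* (1218 and 1600) were lower in the former, and *Des* (4203 and 3862) was not. The osteoblast *Ibsp* (35.67 and 35.08) and the chondrocyte *Acan* (35.1 and 39.22) lay below the median of all values. A list of 3 macrophage markers summed to 928.5 to 1093 in C2C12-pMirn378 and 381.4 to 459 in C2C12-pMirn0 cells, most of it *Csf1r* (means 915 in C2C12-pMirn378 and 335.1 in C2C12-pMirn0 cells), with the pan-leukocyte *Ptprc* at 10.93 in C2C12-pMirn378 and 6.457 in C2C12-pMirn0 cells and *Adgre1* at 87.25 in C2C12-pMirn378 and 89 in C2C12-pMirn0 cells, near or below the median of all values. The part of these shifts in the kinesin differences was not tested.

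At d3 untreated 4 members were called higher in C2C12-pMirn378 cells (0.418% of all genes) and 0 lower (0.297%), all 4 mitotic. From the arrays given above, *Kif2c* averaged 400.4 ± 63.1 in C2C12-pMirn378 and 208 ± 13.5 in C2C12-pMirn0 cells (SD, n = 3 each), a log2 ratio of 0.94 (adjusted p = 0.000813 by limma). *Kif20b* averaged 220.3 ± 28.9 in C2C12-pMirn378 and 119 ± 6.64 in C2C12-pMirn0 cells (0.89, adjusted p = 0.00247 by limma), *Kif20a* 359 ± 35.8 in C2C12-pMirn378 and 200.2 ± 30.6 in C2C12-pMirn0 cells (0.85, adjusted p = 0.00149) and *Kif11* 254 ± 29.7 in C2C12-pMirn378 and 155 ± 14 in C2C12-pMirn0 cells (0.71, adjusted p = 0.00317). The lines did not overlap for these 4 genes, which describes their arrays and was not set against the share of all genes. *Kif23* (1.29) and *Kif22* (0.89) did not overlap either, but missed the adjusted p (0.0439 and 0.0381 by limma). *Kif18a* had 109.6, 83 and 94.5 in C2C12-pMirn378 and 68.6, 66.9 and 56.4 in C2C12-pMirn0 cells (0.58), without overlap, *Kif4* had 239.7, 225 and 168 in C2C12-pMirn378 and 130.5, 140 and 160 in C2C12-pMirn0 cells (0.54), and *Kif18b* had 160.4, 186 and 166 in C2C12-pMirn378 and 161, 143 and 115 in C2C12-pMirn0 cells (0.30), and none of these 3 passed. The class median was 0.71, against 0.02 for the transport class and 0.02 for all genes. The second brightest probe sets of *Kif2c* (0.83) and *Kif20b* (1.23) did not pass. The 4 calls became 0 without replicate 1 or 2 of C2C12-pMirn0 cells or replicate 1 or 3 of C2C12-pMirn378 cells, 2 without replicate 3 of C2C12-pMirn0 cells, and 0 in a fit of these 6 arrays alone, where 9 members were higher and 1 lower at an unadjusted p under 0.05.

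At d6 untreated 0 members were called higher (0.165% of all genes) and 0 lower (0.0824%) by limma, with 8 higher and 1 lower at an unadjusted p under 0.05. The mitotic motors that were not dim were 0.35 to 0.73 higher in C2C12-pMirn378 cells, with a class median of 0.47 over all 11 and 0.05 in the transport class. For example, *Kif18b* had 164, 158 and 171 in C2C12-pMirn378 cells, against 92.5, 116 and 116 in C2C12-pMirn0 cells, and *Kif4* had 249.9, 178 and 219.7 in C2C12-pMirn378 cells, against 120.3, 144 and 202 in C2C12-pMirn0 cells. *Kif18b* did not overlap between the lines and *Kif4* did. Without replicate 3 of C2C12-pMirn0 cells 1 member passed.

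At d6 with BMP2 the lines differed in 3 members, all lower in C2C12-pMirn378 cells. *Kif23* was lower in C2C12-pMirn378 cells, with 36.4, 17 and 15.6 against 39.7, 106 and 49.8 in C2C12-pMirn0 cells (-1.48, SE 0.31; adjusted p = 0.00375 by limma). *Kif5c* had 235, 203 and 172 in C2C12-pMirn378 cells, against 379, 345 and 329 in C2C12-pMirn0 cells (-0.80, SE 0.14; adjusted p = 0.000566 by limma). *Kif21b* had 349.6, 296 and 392 in C2C12-pMirn378 cells, against 532, 543 and 566 in C2C12-pMirn0 cells (-0.67, SE 0.13; adjusted p = 0.00211 by limma). The 3 genes were lower in C2C12-pMirn378 cells in every array, and they were the 3 members called lower (1.32% of all genes), with 0 called higher (1.54%). No other mitotic motor was called, and those that were not dim ran from -0.56 (*Kif18b*) to 0.15 (*Kif11*). *Kif20a* had 104, 113 and 146 in C2C12-pMirn378 and 139.8, 163 and 142 in C2C12-pMirn0 cells, *Kif2c* had 141, 131 and 149 in C2C12-pMirn378 and 142, 159 and 152 in C2C12-pMirn0 cells, and the class median was -0.11. *Kif11* in C2C12-pMirn0 cells had 112, 84.6 and 102, *Kif20b* 124, 96.2 and 90.5 and *Kif22* 692, 722 and 740. With 479, 545 and 594 in C2C12-pMirn378 cells, *Kif22* was lower there in every array (-0.42, adjusted p = 0.309 by limma). Its other probe sets gave -0.43 each (adjusted p = 0.0179 and 0.275 by limma), short of a call. *Kif4* had 56.2, 128 and 84.5 in C2C12-pMirn378 and 95.3, 79.9 and 97.4 in C2C12-pMirn0 cells, *Kif18b* had 53.5, 126 and 77.8 in C2C12-pMirn378 and 143, 115 and 103 in C2C12-pMirn0 cells, and *Kif18a* had 71, 76.6 and 64 in C2C12-pMirn378 and 63.7, 85.8 and 80.5 in C2C12-pMirn0 cells, each with overlap. Summed myotube markers were 5631 to 6603 in C2C12-pMirn378 and 11432 to 12893 in C2C12-pMirn0 cells in this comparison and osteoblast markers 5895 to 7549 in C2C12-pMirn378 and 2699 to 3089 in C2C12-pMirn0 cells, whose part was not tested. The 3 calls became 1 without replicate 1, 2 or 3 of C2C12-pMirn0 cells or replicate 3 of C2C12-pMirn378 cells, *Kif21b* gave 1.47 on its second probe set (dim, mean 8.498), and *Kif23* gave -0.36 with values under 50 raised to 50. The second probe set of *Kif23* gave -0.32 (adjusted p = 0.589) and its dimmest one 0.41 (adjusted p = 0.826), and its call was lost with the replicate number as a block (adjusted p = 0.00532 by limma), with an offset of 16 (-1.01) and with quantile normalization (-1.40).

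At d0 *Kif9* was the member called, lower in C2C12-pMirn378 cells (1 member, 0.709% of all genes, with 0 higher against 0.121%). It had 4.85, 16.4 and 2.42 in C2C12-pMirn378 cells, against 28.2, 37.5 and 27.5 in C2C12-pMirn0 cells (-2.41, SE 0.42; adjusted p = 0.00137 by limma). All of these values lie below the median of all values, and the ratio was 0.00 with values under 50 raised to 50. The call was lost without replicate 2 or 3 of C2C12-pMirn0 cells or replicate 1 or 3 of C2C12-pMirn378 cells (0 members).

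**Figure D5:**
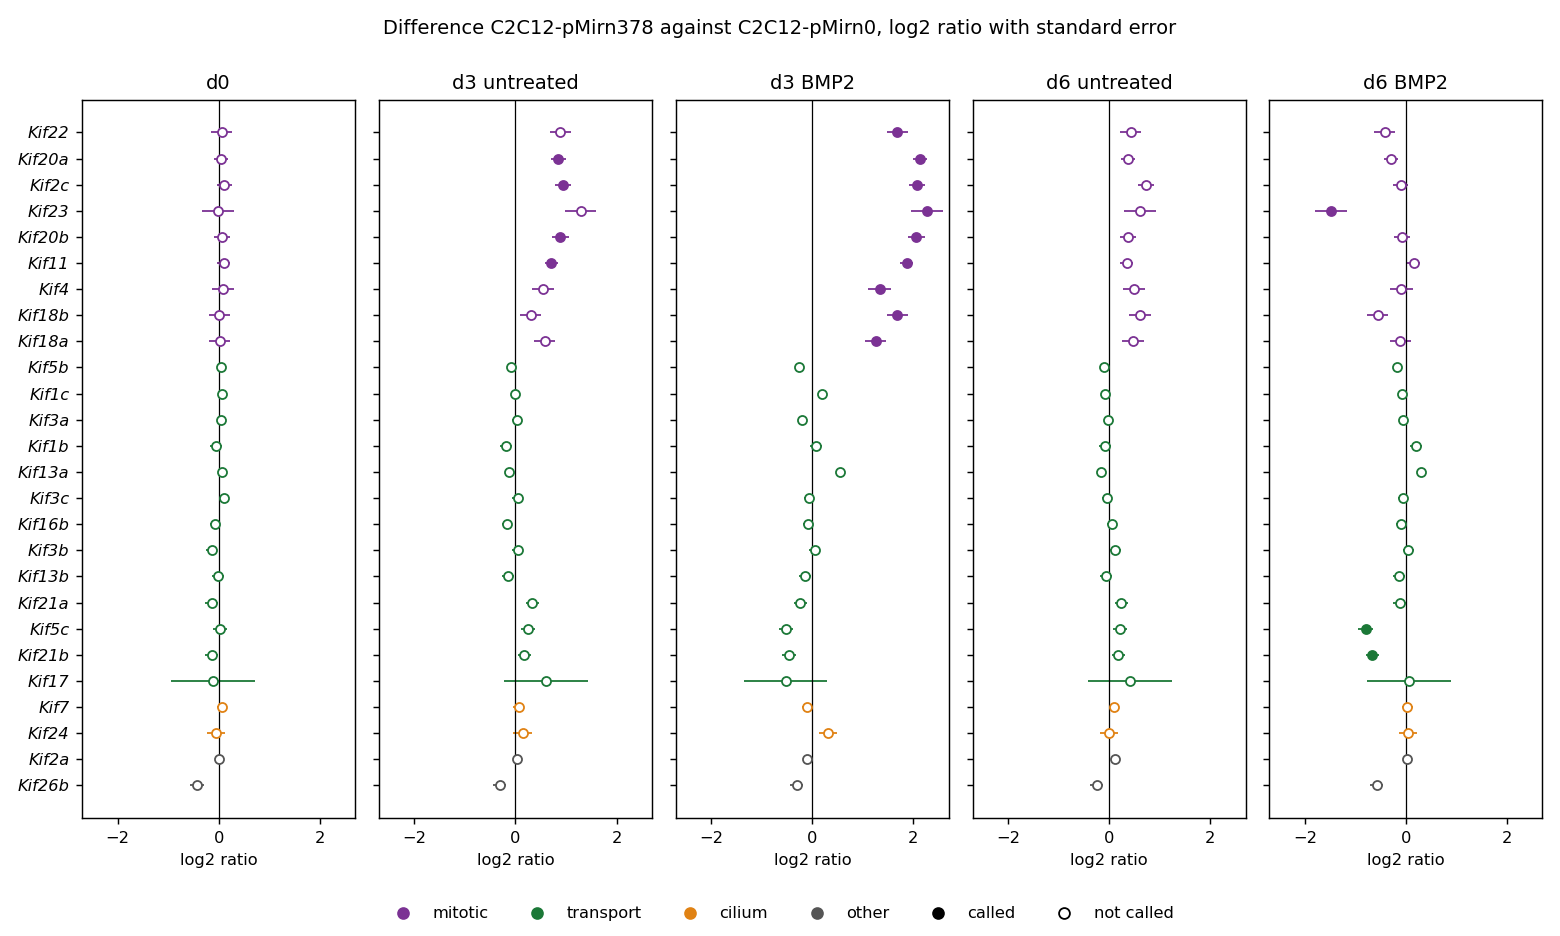
Log2 ratio of C2C12-pMirn378 over C2C12-pMirn0 cells (horizontal axis, point ± SE of the limma fit) for the 26 kinesins that were not dim, in 5 panels for d0, d3 untreated, d3 BMP2, d6 untreated and d6 BMP2, with filled points where the difference was called (purple mitotic, green transport, orange cilium or centriole, grey other). The 9 mitotic motors are filled at d3 with BMP2, between 1.25 and 2.27, against 4 at d3 untreated and 0 at d6 untreated.

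Whether BMP2 acted differently in the lines was tested as the interaction, the BMP2 over untreated log2 ratio of C2C12-pMirn378 cells minus that of C2C12-pMirn0 cells, which rests on the same arrays as the comparisons above. At d3 5 members were called higher (1.15% of all genes) and 0 lower (0.874%). They were *Kif20a* (1.28, SE 0.20; adjusted p = 0.000376 by limma), *Kif20b* (1.17, SE 0.22; adjusted p = 0.00227), *Kif11* (1.16, SE 0.18; adjusted p = 0.000391), *Kif2c* (1.14, SE 0.21; adjusted p = 0.00188) and the transport motor *Kif13a* (0.67, SE 0.08; adjusted p = 3.98e-05). *Kif18b* (1.38) and *Kif23* (0.98) missed the adjusted p (0.0087 and 0.299 by limma). The second brightest probe sets of *Kif11* (0.67), *Kif2c* (0.56) and *Kif20b* (0.45) did not pass. The mitotic class median was 0.98, against -0.11 for the transport class and -0.03 for all genes.

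*Kif13a*, which carries recycling endosomes and mannose 6-phosphate receptors, had at d3 1573, 1463 and 1513 with BMP2 and 1023, 1075 and 978 untreated in C2C12-pMirn378 cells. In C2C12-pMirn0 cells at d3 *Kif13a* had 1014, 1052 and 1040 with BMP2 and 1084, 1146 and 1105 untreated. BMP2 arrays were thus above untreated arrays in C2C12-pMirn378 cells (0.56), and they lay below them in C2C12-pMirn0 cells (-0.10; adjusted p = 0.234 by limma). Between the lines *Kif13a* differed by 0.55 at d3 with BMP2 (SE 0.06; adjusted p = 9.01e-07 by limma), just short of the ratio asked for a call. At d6 *Kif13a* had 1002, 969.9 and 1027 with BMP2 and 788, 766 and 753 untreated in C2C12-pMirn378 cells, and 800, 802 and 857 with BMP2 and 794, 907 and 890.2 untreated in C2C12-pMirn0 cells, with d0 arrays of 779.9, 827 and 781 in C2C12-pMirn378 and 787, 747 and 763 in C2C12-pMirn0 cells. *Kif13a* was the transport motor whose interaction was called at d3, and its second brightest probe set gave 0.57 without passing (adjusted p = 0.18 by limma).

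At d6 1 member was called lower (1.02% of all genes) and 0 higher (1.03%). *Kif5c* had 235, 203 and 172 with BMP2 and 314, 391 and 412 untreated in C2C12-pMirn378 cells, and 379, 345 and 329 with BMP2 and 294, 324 and 339 untreated in C2C12-pMirn0 cells (interaction -1.02, SE 0.20; adjusted p = 0.00339 by limma). The call was lost with the replicate number as a block (adjusted p = 0.00597) and with quantile normalization (adjusted p = 0.00606). BMP2 arrays were all below untreated arrays in C2C12-pMirn378 cells, and in C2C12-pMirn0 cells 2 of 3 BMP2 arrays were above them. At d3 the *Kif5c* arrays were 227, 196 and 164 with BMP2 in C2C12-pMirn378 and 261, 279.8 and 294 with BMP2 in C2C12-pMirn0 cells (interaction -0.77; adjusted p = 0.0291 by limma). *Kif23* (-2.09; adjusted p = 0.00717), *Kif21b* (-0.86; adjusted p = 0.00972) and *Kif2c* (-0.84; adjusted p = 0.0229) did not pass at d6, and the mitotic class median was -0.67, against -0.09 in the transport class and -0.05 for all genes. The 5 calls at d3 became 3 without replicate 3 of untreated C2C12-pMirn0 cells, replicate 1 of C2C12-pMirn0 cells with BMP2, replicate 2 of untreated C2C12-pMirn378 cells, or replicate 2 or 3 of C2C12-pMirn378 cells with BMP2. The call at d6 was lost without any of the untreated C2C12-pMirn0 arrays, replicate 2 or 3 of C2C12-pMirn0 cells with BMP2, replicate 2 or 3 of untreated C2C12-pMirn378 cells or replicate 3 of C2C12-pMirn378 cells with BMP2, and in fits of the compared groups alone 0 members passed at either day (9 higher and 4 lower at d3, 2 and 8 at d6, at an unadjusted p under 0.05).

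The partners of the mitotic motors followed them. Of 12 spindle and midzone partners, all measured, 11 were called lower in each of the 4 courses (10.2% to 11.7% of all genes). Against C2C12-pMirn0 cells, 11 were called higher in C2C12-pMirn378 cells at d3 with BMP2 (median 1.81, with 2.49% of all genes called). At d3 untreated 10 were called higher (median 0.87, with 0.418% of all genes called). *Birc5*, the survivin subunit of the chromosomal passenger complex that *Kif20a* carries, differed by 2.60 at d3 with BMP2 (adjusted p = 2.67e-12 by limma), *Prc1*, the midzone bundler with which *Kif4* works, by 1.74, and *Incenp*, the scaffold of the same complex, by 1.52. At d3 untreated *Birc5* differed by 0.98, *Anln* (anillin of the contractile ring) by 0.97 and *Cdca8* (borealin) by 0.95. The interaction was called higher for 8 of the 12 at d3 (*Birc5* 1.61, *Prc1* 1.31, *Incenp* 0.91), against 1.15% of all genes. At d6 it was called lower for 2 (*Ect2* -1.04, *Anln* -0.80), against 1.02% of all genes. Mitotic motors outside the symbol rule behaved alike: *Kifc1*, the minus-end motor of the spindle, and *Cenpe*, the kinetochore kinesin, were called lower in the 4 courses and were higher in C2C12-pMirn378 cells at d3 with BMP2 (1.93 and 1.58) and untreated (1.21 and 0.89).

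General proliferation genes moved with them. All 7 measured of 8 listed were called lower in each course (10.2% to 11.7% of all genes). In C2C12-pMirn378 cells against C2C12-pMirn0 cells 5 were higher at d3 with BMP2 (2.49% of all genes called) and 5 at d3 untreated (0.418%). *Mki67*, the proliferation marker, differed by 2.23 and 1.08 at d3 with BMP2 and untreated, *Top2a*, which untangles chromosomes, by 2.03 and 0.97, and *Cdk1*, the kinase that drives mitosis, by 1.64 and 0.69. The number of cycling cells was not measured, and whether the kinesin differences go beyond the differences in these genes was not tested.

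Partners of the transport motors were not called between the lines. Of 14 measured (of 18 listed), 0 were called in any line difference or interaction by limma, against at most 2.49% of all genes in either direction. At most 5 partners were higher and 2 lower at an unadjusted p under 0.05 by limma. *Klc1*, a kinesin-1 light chain, was called higher in the untreated courses (1.24 in C2C12-pMirn378 and 1.39 in C2C12-pMirn0 cells), as *Kif5b* was, and lower with BMP2 than untreated in C2C12-pMirn378 cells (-1.14 at d3 and -1.24 at d6) and in C2C12-pMirn0 cells (-1.29 and -1.51). *Klc4*, another light chain, rose in C2C12-pMirn378 cells with BMP2 and untreated (0.78 and 0.89) and in C2C12-pMirn0 cells (0.75 and 0.89). *Kifap3*, the adaptor of the *Kif3a* and *Kif3b* motor, rose in the same courses, by 1.20 and 0.83 in C2C12-pMirn378 cells and 1.21 and 0.88 in C2C12-pMirn0 cells. Not all 14 partners rose. With BMP2, d6 against d0 had 6 higher and 2 lower in C2C12-pMirn378 cells at an unadjusted p under 0.05 by limma. In C2C12-pMirn0 cells with BMP2 5 were higher and 4 lower, and untreated 7 were higher and 0 lower in each line. Among 10 measured subunits of the opposing motor dynein and its activator dynactin, *Dync1i1*, a dynein intermediate chain, was higher in C2C12-pMirn378 cells against C2C12-pMirn0 cells with BMP2, by 0.86 at d3 (adjusted p = 7.42e-06 by limma) and 0.80 at d6 (adjusted p = 3.36e-05). It was also 0.54 higher at d0 (adjusted p = 0.00623), short of a call, and 0.31 and 0.28 higher untreated at d3 and d6 (adjusted p = 0.276 and 0.308).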

How the data were processed

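RNA of each culture was hybridised by the authors to Affymetrix Mouse Genome 430 2.0 arrays, and the deposited values are linear intensities that, by the study's methods, had passed RMA and quantile normalization (R 2.4.1 per the labels). Quantile normalization gives arrays equal medians, whereas those of the deposited values ran from 68.04 to 82.66, so the last step that made the values is not settled. In the deposited values dim probe sets spread more between replicates than bright ones (log2 SD about 0.86 against 0.15). The lowest value was 0.05612, so log2 ratios of dim genes can be large without being reliable. Here log2 of the intensity, with no offset, was fitted with limma 3.58.1 in R 4.3.3 over the means of the 10 groups, with empirical Bayes moderation, and p-values were adjusted by Benjamini-Hochberg over all 45101 probe sets. The thresholds (adjusted p under 0.005 and a log2 ratio beyond 0.6) are those of the study. Of the probe sets, 34958 carried 1 symbol in the platform annotation, 932 several and 9211 none. The 37 members had 99 probe sets, and 12 members had a single one.

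Every member could be named. Values per array were given for the 6 brightest mitotic and 6 brightest transport members, for members called in a line difference or interaction, for members called against most of their class, and for the 4 largest BMP2 differences of each day and line. Partner genes were limited to 3 per list and comparison, by adjusted p. The members, classes and lists were chosen with earlier results of these data known. The fit was tested on simulated data. The alternatives tried were the replicate block, an offset of 16, a floor of 50, a filter on dim probe sets, the compared groups alone, trend and robust estimation, array weights, 2 other normalizations, the second brightest probe set, a threshold of 0.05 with no minimum ratio, and each array left out.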

Additional observations from a re-analysis of the deposited data

Results flagged for a closer look

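The effect of BMP2 differed between the lines at d3 for 5 kinesins, by the limma test of the difference itself. BMP2 over untreated in C2C12-pMirn378 cells exceeded that in C2C12-pMirn0 cells by 1.28 on the log2 scale for *Kif20a*, 1.17 for *Kif20b*, 1.16 for *Kif11*, 1.14 for *Kif2c* and 0.67 for *Kif13a*. At d6 the same test marked *Kif5c*, whose BMP2 over untreated ratio was smaller in C2C12-pMirn378 cells (-1.02), a call that was lost with the replicate number as a block (adjusted p = 0.00597 by limma) and with quantile normalization (adjusted p = 0.00606). *Kif13a* and *Kif5c* are transport motors and moved in opposite directions.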

How the results depend on the processing

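The counts of called kinesins stayed within 1.5 times the reported ones for all 4 courses under every alternative, with ranges of 17 to 19 (C2C12-pMirn378 untreated), 20 to 20 (C2C12-pMirn378 BMP2), 16 to 17 (C2C12-pMirn0 untreated) and 17 to 17 (C2C12-pMirn0 BMP2) when each array was left out, and under bright-probe median scaling no count moved further than that. Fitting only the compared groups, which leaves fewer residual degrees of freedom, cut the counts most. At d6 against d3 it called 0 in untreated C2C12-pMirn378, 4 in C2C12-pMirn378 with BMP2, 0 in untreated C2C12-pMirn0 and 0 in C2C12-pMirn0 with BMP2. For BMP2 against untreated it called 8 and 5 in C2C12-pMirn378 (d3 and d6) and 4 and 6 in C2C12-pMirn0. Between lines it called 0 at d0, 0 at d3 untreated, 0 at d3 BMP2, 0 at d6 BMP2, and 0 for either interaction. A threshold of 0.05 with no minimum ratio called 4 and 5 members untreated at d6 against d3 (C2C12-pMirn378 and C2C12-pMirn0), 14 and 19 for BMP2 in C2C12-pMirn0 at d3 and d6, 14 between lines at d3 with BMP2, 1 at d6 untreated, 6 at d6 with BMP2 and 6 for the interaction at d6.

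Same-numbered arrays of different groups had residual correlations of -0.107 to 0.125 (median 0.023 over 135 pairs). Pairs with different numbers had a median of -0.010 (270 pairs). Of 30 arrays, 20 correlated best with their own number, so a weak pairing by replicate number may remain in the main fit, which has no block. With the replicate block, calls at d6 against d3 in untreated C2C12-pMirn0 became 0, between lines at d6 untreated 1 and for the interaction at d6 0, and 16 of 19 counts stayed within 1.5 times, with 4 of 162 single calls lost, each given beside its result.

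The d6 interaction, 1 call as reported, also became 2 with a floor of 50, 3 with the filter on dim probe sets, 2 with trend and robust estimation, 0 with quantile normalization and 3 with the second brightest probe set. That probe set gave 2 calls at d6 against d3 in untreated C2C12-pMirn0, 1 between lines at d6 with BMP2 and 2 for the d3 interaction. The single call in untreated C2C12-pMirn0 at d6 against d3 became 0 with an offset of 16 and 0 with array weights, that between lines at d0 became 0 with the floor and 0 with the filter, and that at d6 untreated 1 with trend and robust estimation. With each array left out, d6 against d3 gave 0 to 1 (untreated C2C12-pMirn378) and 0 to 1 (untreated C2C12-pMirn0), the line difference 0 to 1 at d0, 0 to 3 at d3 untreated, 0 to 1 at d6 untreated and 1 to 2 at d6 with BMP2, and the interaction 3 to 6 at d3 and 0 to 2 at d6. The arrays concerned stand beside those results above, and the causes were not tested.

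Reversed signs came from the second brightest probe set: *Kif21b* -0.53 (course, C2C12-pMirn378 untreated) and 1.47 (lines, d6 BMP2), *Kif1b* -0.28 and -0.09 (BMP2 courses of C2C12-pMirn378 and C2C12-pMirn0), *Kif5c* 0.17 (course, C2C12-pMirn0 BMP2) and 0.81 and 0.35 (BMP2 against untreated in C2C12-pMirn378, d3 and d6). *Kif9* at d0 gave 0.00 with the floor. Quantile normalization moved the median of all genes by up to -0.120 (d3 against d0, untreated C2C12-pMirn378) and the floor by up to 0.127 (d6 against d0, untreated C2C12-pMirn0). Of 162 single calls, 116 kept their call on the second probe set and 92 in fits of the compared groups, against 155 to 162 under the other alternatives without the dim filter. The 116 include calls of members with a single probe set, such as *Kif20a*, *Kif4*, *Kif18b* and *Kif7*. These had no second probe set and could not lose a call there, so the 116 overstate how far probe sets of a gene agree. Dim probe sets had a replicate SD of about 0.86 on the log2 scale, against 0.15 for bright probe sets. Among the dim members, under 76.46 in every group, the SE of a line difference ran from 0.25 (*Kif12*) to 0.87 (*Kif27*). Small differences in them could therefore not be seen.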
